A study of Mus musculus with 4 samples.

Results

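Apod Thbs4 fibroblasts are a small set of stromal cells in orthotopic mouse pancreatic tumors, and 68 of the 44554 cells kept in the series belonged to it. The cells were chosen by measured values. A cell entered the fibroblast gate when it had at least 200 detected genes, at least 4 of 9 fibroblast genes (Col1a1, Col1a2, Col3a1, Col5a1, Lum, Pdgfra, Pdpn, Fap and Mmp2) and no unique molecular identifier (UMI, a tag that marks 1 captured RNA molecule) of Ptprc, the pan-leukocyte gene. Among gate cells, detected genes were counted in 4 sets of 6, and a cell was a member when Apod, Thbs4, Ptx3, Cilp, Tac1 and Gfpt2 formed the set with the most detected genes, with at least 2 detected and no tie. The other sets were led by Wt1 (with Calca, Adgrd1, Ptgis, Pappa and Sntg1), by Clec3b and Dpt (with Chl1, Svep1, Abi3bp and Sfrp1) and by matrix genes (Fbn2, Col8a1, Col12a1, Galnt17, Cthrc1 and Tnc), and are called the Wt1, Clec3b Dpt and matrix classes. The values of these genes are therefore a description of the choice and not a finding.

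The tumors grew from KPC cells, a mouse pancreatic ductal adenocarcinoma line (FC1242), implanted into the pancreas of C57BL/6 males fed a high-fat diet for 24 weeks. The dissociated tumors of each treatment were combined before droplet single-cell RNA sequencing (scRNA-seq), which gave 1 library for each of 4 conditions. Pdgfrb-TK mice carry a thymidine kinase driven by the Pdgfrb promoter, which turns the prodrug ganciclovir (GCV) toxic in dividing cells that express it. They received GCV at 50 mg/kg intraperitoneally (Pdgfrb-TK/GCV, 3 mice) or the PBS vehicle (Pdgfrb-TK/PBS, 4 mice). Wild-type mice, C57BL/6 in the labels and C57BL/6J in the study's methods, received D-CAN, a cell-killing peptide that homes to adipose stromal cells carrying a form of decorin, at 30 mg/kg subcutaneously (D-CAN, 3 mice), or PBS (WT/PBS, 3 mice). All injections were given every other day for 25 days from grafting. The mouse numbers are those of the study's tumor experiments, whereas the cell totals in its methods correspond to 3 tumors per pool. The study's methods put the mice at 12 months of age, whereas the sample labels give 7 months and carry an extraction text for nuclei of another tissue. Because the mice of a condition were pooled before capture, every condition was 1 sample, no difference below could be tested, and all intervals (95%) cover counting error only.

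Fibroblasts build and remodel connective tissue matrix, and in pancreatic tumors cancer-associated fibroblasts (CAFs) are commonly sorted into contractile, matrix-rich myofibroblastic cells (myCAFs) and cytokine-secreting inflammatory cells (iCAFs). The 6 genes of the set fall into several roles. Thbs4 encodes thrombospondin 4, a matricellular glycoprotein abundant in tendon and muscle, and Cilp encodes cartilage intermediate layer protein, a matrix protein that binds growth factors of the TGF-beta family. Apod encodes apolipoprotein D, a secreted lipocalin that carries small lipids, and Ptx3 encodes pentraxin 3, a soluble pattern recognition protein that also cross-links hyaluronan matrix. Tac1 encodes the precursor of the neuropeptide substance P, and Gfpt2 an enzyme at the entry of the hexosamine pathway. In mm10 coordinates the genes lie on separate chromosomes: Apod at chr16:31296192-31314808, Thbs4 at chr13:92751590-92794818, Ptx3 at chr3:66219910-66225805, Cilp at chr9:65265180-65280605, Tac1 at chr6:7554879-7565834 and Gfpt2 at chr11:49794178-49838613.

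The members were almost all from WT/PBS tumors. WT/PBS held 60, D-CAN 7, Pdgfrb-TK/PBS 1 and Pdgfrb-TK/GCV 0. The libraries had 155408336, 130115741, 84020317 and 127722502 total UMIs in that order, and the fibroblast gate took 2213 of 11627, 1190 of 10178, 535 of 10469 and 306 of 12280 kept cells. Each pair of libraries had between 25 and 40 cell barcodes in common among kept cells, and 0 of these belonged to a member.

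The label was checked against markers. In WT/PBS, 5 of the 60 members went against it. They carried at least 4 of 7 epithelial markers of KPC cells (Epcam, Krt7, Krt8, Krt18, Krt19, Cldn4 and Cldn7) with 20 or more UMIs of them, a limit set after the data were seen. These KPC-marker-rich cells had 124 to 312 UMIs of the keratins Krt8 and Krt18 together, against 0 to 35 (median 2) in the other 55. They had 1 to 12 UMIs of Col1a1, against a median of 16. They were deep, with 22417 to 55880 UMIs, and held 30.3% of all UMIs of the 60 members. The 9 fibroblast genes summed to 454 UMIs per 1000000 (CPM) in the 5 cells and to 15587 CPM in the other 55, and 4 of the 5 entered the set on only 2 of its 6 genes. The Wt1, Clec3b Dpt and matrix classes of the library had these genes at 10324, 14500 and 14469 CPM, with their own KPC-marker-rich cells included. Since the gate required the fibroblast genes in every cell of all classes, their level is a description and no independent check of the label. Values below are for all 60 cells unless the other 55 are named, and where the count of genes past 2-fold in a list differs without the 5 cells both counts are given for each fibroblast list.

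**Figure D1:**
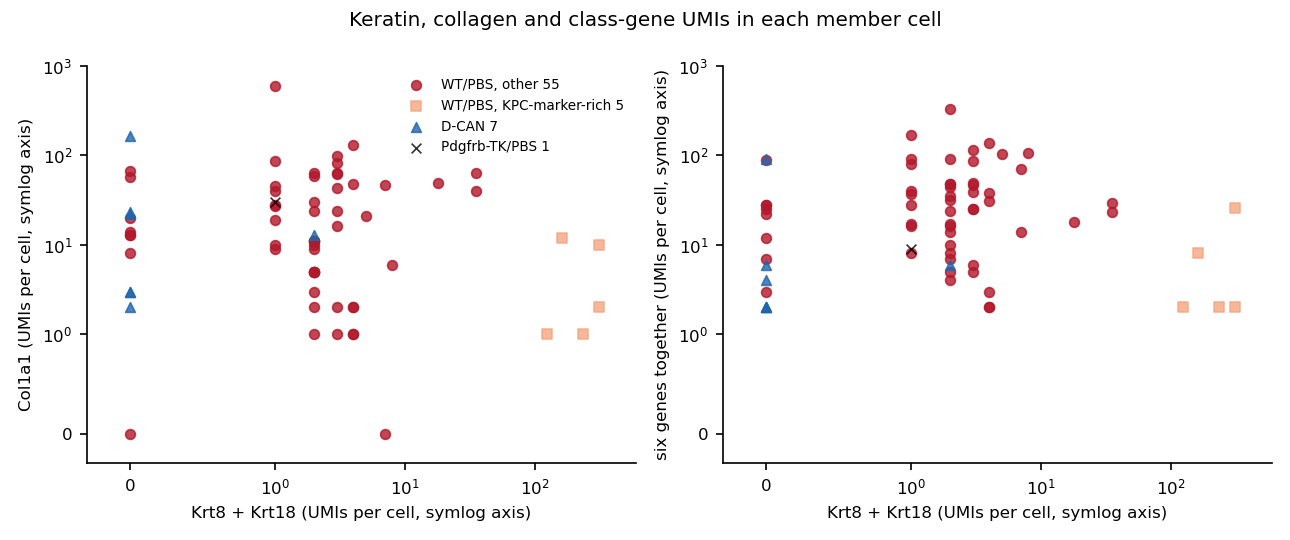
UMIs of Krt8 plus Krt18 in each of the 68 member cells (x axis) against UMIs of Col1a1 (left) and of the 6 class genes together (right), on axes that are linear below 1 and logarithmic above. The 5 KPC-marker-rich WT/PBS cells (squares) lie at 124 to 312 keratin UMIs, apart from the other 55 (circles) at 0 to 35, the 7 D-CAN cells (triangles) and the 1 Pdgfrb-TK/PBS cell (cross).

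Markers of macrophages, lymphocytes and vascular, nerve, fat, acinar and muscle cells were low in the members, while KPC tumor cell genes were not. In the 60 WT/PBS cells, the summed level was 75.5 CPM for 10 macrophage and monocyte genes (highest Fcer1g, 20.7 CPM, with 1 gene at 0), 4.44 CPM for 7 T cell genes (6 at 0), 2.96 CPM for 5 B cell genes (3 at 0) and 54.8 CPM for 8 endothelial genes (highest Emcn, 16.3 CPM, 1 at 0). Pericyte and smooth muscle genes summed to 47.4 CPM over 9 genes (highest Cspg4, 26.7 CPM, 2 at 0), Schwann cell genes to 17.8 CPM over 8 (5 at 0), adipocyte genes to 5.92 CPM over 7 (5 at 0), acinar genes to 5.92 CPM over 8 (7 at 0) and skeletal muscle genes to 16.3 CPM over 7 (5 at 0). Neutrophil genes reached 166 CPM over 5 genes, mostly from S100a9 (108 CPM), against 11.6 (Wt1), 22.8 (Clec3b Dpt) and 63.2 CPM (matrix) in the other classes, and 95.9% of the S100a9 UMIs came from 1 cell. Mesothelial genes summed to 341 CPM over 7 genes, led by Krt19 (204 CPM), with 3 at 0, and to 140 CPM without the KPC-marker-rich cells. KPC tumor cell genes summed to 2832 CPM over 10 genes (highest Krt18, 1210 CPM) and to 627 CPM without the 5 cells, with 1707, 2121 and 3950 CPM in the Wt1, Clec3b Dpt and matrix classes, against 11552 CPM in KPC-marker cells of the same library, which were cells with at least 4 of the 7 KPC markers and at most 1 fibroblast gene. The part of these markers in the results was not tested.

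Members formed 0.516% of kept WT/PBS cells (exact interval 0.394% to 0.664%) and 0.0688% of kept D-CAN cells (0.0277% to 0.142%). The WT/PBS share was 7.50-fold higher, with a counting interval of 3.43 to 19.5. Among fibroblast-gate cells alone the shares were 2.71% (60 of 2213) and 0.588% (7 of 1190), and WT/PBS was 4.61-fold higher (2.10 to 11.95). Without KPC-marker-rich cells the D-CAN share was 0.137 of the WT/PBS share among kept cells and 0.225 among gate cells. With 1 library per condition, an effect of D-CAN and a difference between the 2 pools of tumors cannot be told apart.

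The thymidine kinase model held too few members to compare. Pdgfrb-TK/PBS had 1 member in 10469 kept cells (0.00955%, exact interval 0.000242% to 0.0532%). Pdgfrb-TK/GCV had 0 of 12280, which allows a share of up to 0.0244% of kept cells and 0.980% of gate cells. The 2 PBS libraries themselves stood far apart. The share of kept cells in Pdgfrb-TK/PBS was 0.0185 of that in WT/PBS (interval 0.000461 to 0.107), and set against Pdgfrb-TK/PBS the D-CAN share would be 7.20-fold higher (0.925 to 325) instead of lower. The genotype, the mice and the capture differ between the PBS libraries and cannot be told apart.

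Without the contest between classes, the order of WT/PBS and D-CAN depended on how many of the 6 genes a gate cell had to carry. Gate cells with 2 or more of them, the number the rule asks for, numbered 962 in WT/PBS (43.5%) and 593 in D-CAN (49.8%), so that D-CAN was higher. Exactly 3 were detected in 11.8% and 17.8%. Gate cells with 4 or more of the 6 genes numbered 309 in WT/PBS (14.0%), 92 in D-CAN (7.73%), 2 in Pdgfrb-TK/PBS (0.374%) and 0 in Pdgfrb-TK/GCV. All 6 genes were detected in 20 gate cells, all in WT/PBS, but Tac1, which all 6 include, had a UMI in only 7 of the 1190 D-CAN gate cells. In D-CAN only 7 cells were members, and 522 of its 1190 gate cells were Clec3b Dpt class (43.9%), against 64 of 2213 in WT/PBS (2.89%). In WT/PBS the matrix class took 1373 gate cells (62.0%), and in Pdgfrb-TK/PBS and Pdgfrb-TK/GCV the Wt1 class took 244 (45.6%) and 215 (70.3%).

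**Figure D2:**
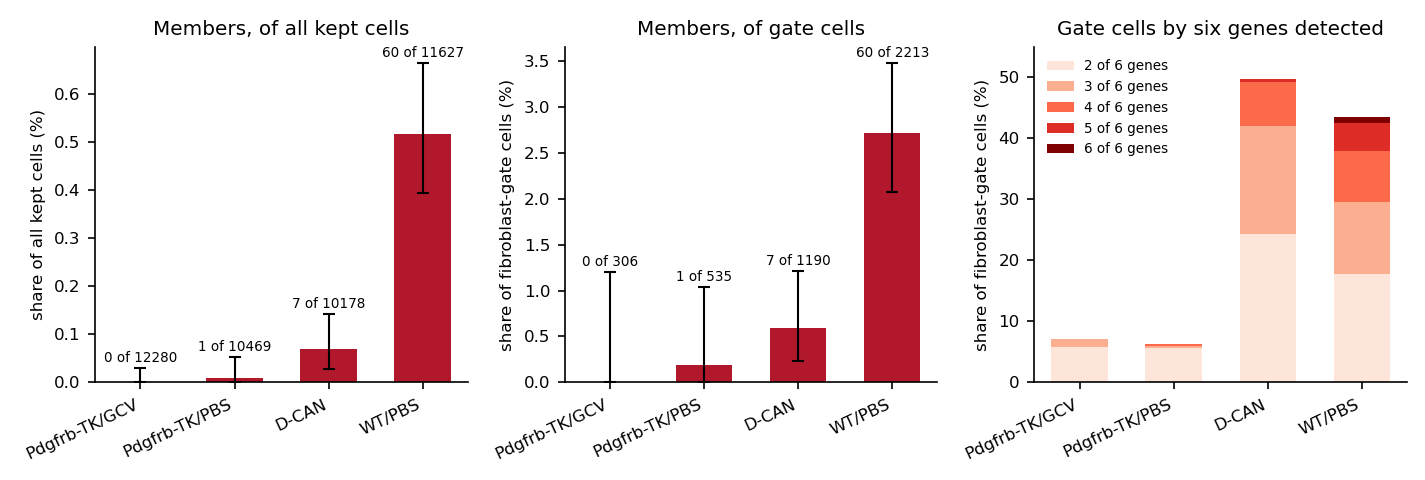
Left and center, Apod Thbs4 fibroblasts as a percentage of kept cells and of fibroblast-gate cells in the 4 libraries, with exact binomial 95% intervals and the counts above each bar. Right, the percentage of gate cells with 2 to 6 of the 6 genes detected. WT/PBS is highest in the first 2 panels, with 60 members; in the third D-CAN is higher at 2 and 3 genes, and WT/PBS at 4 to 6.

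The border of the class was narrow. Of the 60 WT/PBS members, 39 led by a single gene over the next set, 18 by 2 and 3 by more. The matrix set was next in 48 cells, counting those in which it shared that place with the Clec3b Dpt or Wt1 set. Just outside the rule, 110 WT/PBS gate cells had as many genes of another set as of the Apod Thbs4 set, 87 of them tied with the matrix set, 37 with the Clec3b Dpt set and 10 with the Wt1 set. The tied cells had the 6 genes at 3057 CPM together, against 3620 CPM in the members. Just inside it, 8 members had only 2 of the 6 genes detected, 13 had 3, 12 had 4, 17 had 5 and 10 had all 6. Apod and Thbs4, the genes that name the class, were both detected in 30 members and neither in 8. Counting the ties in gave 170 WT/PBS and 17 D-CAN cells.

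D-CAN members were also shallower than WT/PBS members. WT/PBS members had a median of 8873 UMIs per cell (682 to 55880) and 2.19% mitochondrial UMIs, and 3 of 60 exceeded 20%. D-CAN members had a median of 1625 UMIs (1168 to 27798) and 11.3% mitochondrial UMIs, and 2 of 7 exceeded 20%, whereas all D-CAN gate cells together had medians of 10286 UMIs and 2.92%. The doublet caller put 7 of the 60 and 2 of the 7 members among the 8% of cells with the highest scores, and the deepest D-CAN member was 1 of those 2. When the rule was applied after thinning each cell to 2000 UMIs, 97 of 1484 WT/PBS and 12 of 917 D-CAN gate cells met it. The D-CAN share was then 0.2002 of the WT/PBS share.

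The matrix genes Thbs4 and Cilp were high in members of both wild-type libraries. Thbs4 stood at 919 CPM in WT/PBS members (621 UMIs; interval 849 to 995), 1313 CPM without KPC-marker-rich cells, and 1133 CPM in the D-CAN members (46 UMIs; 830 to 1512). The other WT/PBS classes were at 1.29 (Wt1), 71.1 (Clec3b Dpt) and 68.2 CPM (matrix). Cilp stood at 592 CPM in WT/PBS members (844 CPM without the 5 cells) and at 1281 CPM in D-CAN members, against 230 CPM in the Clec3b Dpt and 180 CPM in the matrix class of WT/PBS. In D-CAN the Clec3b Dpt class itself had 600 CPM of Cilp. In D-CAN, 1 deep cell held 40 of the 46 Thbs4 UMIs and 45 of the 52 Cilp UMIs, while Thbs4 was detected in 5 and Cilp in 6 of the 7 cells. The D-CAN levels of both genes therefore describe mostly that cell. The single Pdgfrb-TK/PBS member had 3 UMIs of Thbs4 and 4 of Cilp.

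Apod and Ptx3 did not separate members from the Clec3b Dpt class. In WT/PBS, Apod was at 853 CPM in members (1164 CPM without the 5 cells) and at 1506 CPM in the Clec3b Dpt class, and only 64.3 and 2.58 CPM in the matrix and Wt1 classes. Ptx3 was at 460 CPM in members (661 CPM without the 5 cells) and at 577 CPM in the Clec3b Dpt class. The class values of the 6 genes include KPC-marker-rich cells, so they compare with the members' values that also include them. In D-CAN the Clec3b Dpt class had less of both, 197 CPM of Apod and 207 CPM of Ptx3, whereas Ptx3 in the Wt1 class was at 102 CPM, against 54.3 CPM in WT/PBS, and the 7 members had 7 and 2 UMIs. Gfpt2 was the broadest of the 6, with 379 CPM in WT/PBS members (542 CPM without the 5 cells), 330.1 CPM in the Wt1 class, 239 CPM in the Clec3b Dpt class and 168 CPM in the matrix class. It was detected in 4 of the 7 D-CAN members (5 UMIs, 123 CPM).

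Tac1 was found almost only in WT/PBS tumors. The library held 2058 Tac1 UMIs in kept cells, 1916 of them in gate cells, against 14 in D-CAN, 2 in Pdgfrb-TK/GCV and 0 in Pdgfrb-TK/PBS. WT/PBS members were at 416 CPM (369 to 468; 586 CPM without the 5 cells), the matrix class at 48.6 CPM, the Clec3b Dpt class at 12.7 CPM and the Wt1 class at 8.40 CPM. The D-CAN members had 0 Tac1 UMIs in 40588, and 3 counts there would be 73.9 CPM, so a lower level was not detectable at this depth. The larger D-CAN matrix class, with 228 cells, had 1.52 CPM (0.612 to 3.14), below the interval of the WT/PBS matrix class (45.8 to 51.5). KPC-marker cells, which should lack the gene, had 0.404 CPM in WT/PBS.

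**Figure D3:**
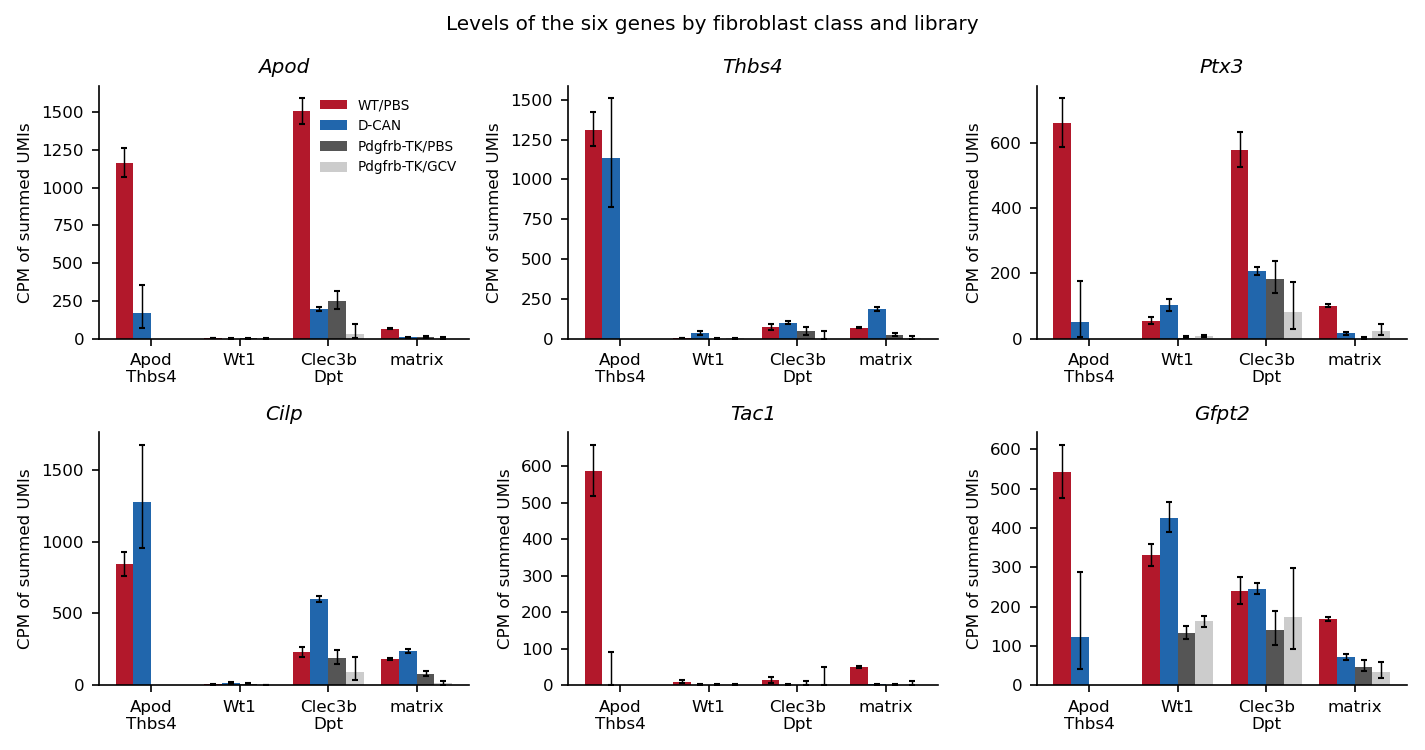
CPM of the 6 genes in the summed UMIs of each fibroblast class (x axis) and library (color), with exact Poisson 95% intervals. WT/PBS members are shown without the KPC-marker-rich cells, whereas the other classes include such cells. The 1 Pdgfrb-TK/PBS member is left out. Thbs4 and Cilp are high in members of WT/PBS and D-CAN, Apod and Ptx3 also in the WT/PBS Clec3b Dpt class, and Tac1 in WT/PBS.

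Members carried only a part of the RNA of their own genes. Of the UMIs in WT/PBS gate cells, members held 18.8% for Thbs4, 14.7% for Tac1, 10.0% for Apod, 6.96% for Ptx3, 6.48% for Cilp and 4.16% for Gfpt2, while being 2.71% of the cells. The rest lay in the other gate cells, namely the other classes, ties and 378 cells with under 2 genes of any set. Between 87.9% (Thbs4) and 93.4% (Cilp) of the UMIs of each gene in kept WT/PBS cells lay in gate cells.

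Among members the genes were spread unevenly. Gfpt2 was detected in 50 of 60 cells, Apod and Cilp in 47 each, Ptx3 in 37, Thbs4 in 35 and Tac1 in 32. For Thbs4, 1 cell held 230 of the 621 UMIs (37.0%) and the 5 highest cells held 74.9%, so its level in the sum describes few cells. The highest cell held 15.6% of the UMIs for Apod, 14.8% for Ptx3, 13.5% for Tac1, 10.8% for Cilp and 8.59% for Gfpt2. In the 55 cells without a KPC-marker-rich profile, the median per 10000 UMIs was 6.83 for Apod, 5.03 for Cilp, 4.01 for Gfpt2, 1.72 for Ptx3, 1.43 for Thbs4 and 1.12 for Tac1. Apod reached 722 per 10000 UMIs in 1 cell. Cilp and Gfpt2 were found together in 40 cells, Apod and Gfpt2 in 39, Apod and Cilp in 39, and Thbs4 and Tac1 in 19.

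In every library the 6 genes were nearly absent from KPC-marker cells, with summed levels of 6.81 CPM for WT/PBS, 2.46 CPM for D-CAN, 0.618 CPM for Pdgfrb-TK/GCV and 0.478 CPM for Pdgfrb-TK/PBS. Thbs4, for example, had a UMI in 58.3% of WT/PBS members and in 1.62% of WT/PBS KPC-marker cells, whose median depth was 14495 UMIs. After thinning both to 2000 UMIs, with 7 and 28 cells too shallow to keep, the shares were 35.8% and 0.222%.

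**Figure D4:**
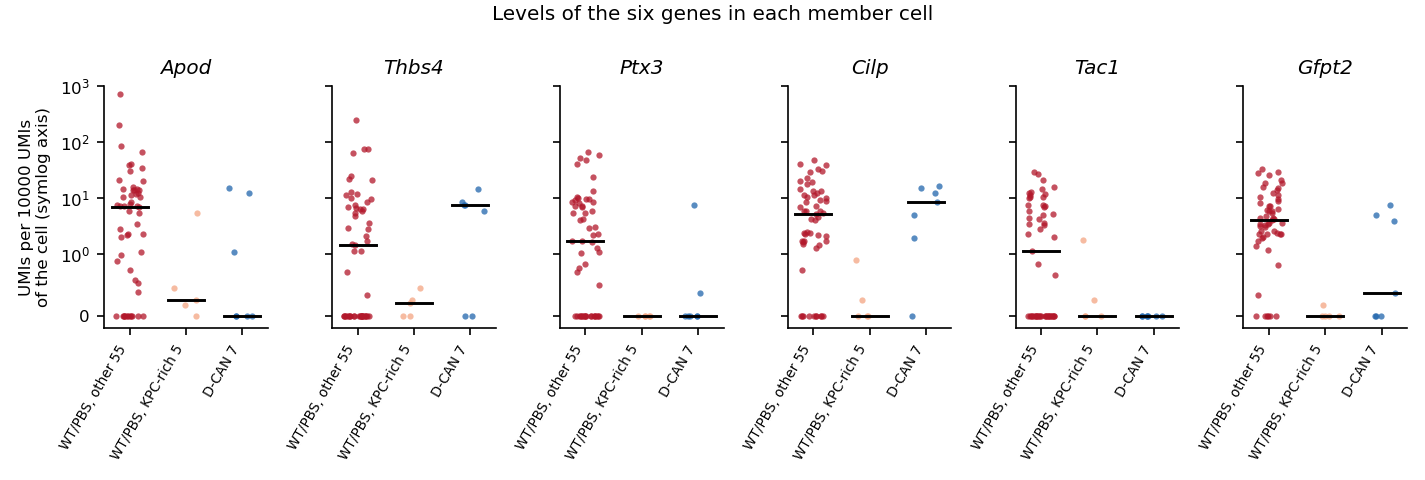
UMIs of each of the 6 genes per 10000 UMIs of the cell (axis linear below 1 and logarithmic above) in the 55 other WT/PBS members, the 5 KPC-marker-rich WT/PBS members and the 7 D-CAN members; points are cells and bars are medians. The 55 cells spread widely for each gene, up to 722 for Apod, and Tac1 is 0 in all D-CAN members.

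Genes outside the 4 sets and the gate were then described in the 60 WT/PBS members against the mean of the Wt1, Clec3b Dpt and matrix classes of the same library, each first scaled to CPM. Npy, Ism1, Calcrl and Gfra1 were among the genes with the highest ratios, and the smooth muscle genes Acta2 and Tagln among those with the lowest. Genes were kept with at least 100 UMIs in the compared sums and 50 CPM in the higher, log2 ratios had 1 CPM added, and a ratio of 2-fold was used as the limit. A gene past 50 CPM on 1 side alone could therefore enter only with a ratio toward that side. Of 3583 genes, 85 were 2-fold or more higher (2.37%) and 118 lower (3.29%), with a median log2 ratio of -0.08. Setting that median to 0 gave 103 higher and 93 lower. Without KPC-marker-rich cells in any class, 139 of 3607 genes were higher (3.85%) and 206 lower (5.71%). Since cells were chosen by other genes of the same cells, these ratios describe the chosen cells and test nothing.

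The 25 genes with the highest ratios were led by Npy and Ism1. Ism1, which encodes the secreted protein isthmin 1, was at 82.9 CPM in members and at 1.94, 8.88 and 15.9 CPM in the Wt1, Clec3b Dpt and matrix classes (log2 ratio 3.08), from 56 UMIs in 9 cells. Npy, the precursor of neuropeptide Y, was at 53.3 CPM against 2.54 to 10.1 CPM (log2 ratio 3.11), but its 36 UMIs came from 5 cells and 44.4% from 1. In the 55 cells Npy was at 42.5 CPM (20 UMIs in 4 cells, 65.0% in 1) and fell under the level filter. Calcrl, the receptor subunit for CGRP and adrenomedullin, was at 54.8 CPM against 5.81 to 12.7 CPM (2.34), in 7 cells. Gfra1, a co-receptor for the neurotrophic factor GDNF, was at 123 CPM in 23 cells, against 11.0, 57.1 and 34.7 CPM (1.81). The netrin receptor gene Unc5c (54.8 CPM, log2 ratio 1.71) and Brinp1 (56.3 CPM, 1.92), a gene expressed in neurons, were also among them.

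Others of the 25 were at higher levels or in more cells. Esr1, the estrogen receptor alpha gene, was at 93.3 CPM against a mean of 18.1 CPM (log2 ratio 2.30), with 46.0% of its UMIs in 1 of 8 cells, and its log2 ratio was 0.90, under 2-fold, after thinning each cell to 2000 UMIs. Pde1a, a calcium-dependent phosphodiesterase gene, was at 157 CPM in 16 cells (1.82), and Klhl29 at 237 CPM in 23 cells (1.53). Il15ra, the interleukin 15 receptor chain that presents the cytokine to lymphocytes, was at 88.8 CPM in 22 cells (1.70). Kcne4, a potassium channel subunit gene, was found in 25 cells at 111 CPM (1.59), and the secreted peptidase inhibitor gene Pi15 in 18 cells at 117 CPM (1.69). Prr16, Olfm2, Zfp385b, Rrad and Pid1 had log2 ratios of 2.21, 1.81, 1.59, 1.56 and 1.54.

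Part of the 25 belonged to few cells or to the KPC-marker-rich ones. Without those cells, 19 of the 25 kept a 2-fold ratio, and those that did not included Anxa10 (log2 ratio 0.99), Phgr1 (0.49), Sprr1a (0.33), Etl4 (0.14) and Onecut2 (-0.36), each at least as high in KPC-marker cells as in the 55 members. Sprr1a, a keratinocyte envelope gene, was at 333 CPM in the 60 cells and at 80.7 CPM in the 55. In 4 of the 25 genes more than 50% of the UMIs were in 1 cell, among them S100a9 (95.9%) and Satb1 (79.4%). In the 55 cells, 23 of the 25 genes were above each of the other 3 classes. The 25 were picked for high ratios in these members, so that count is a description only. It includes small differences, such as Etl4 (46.7 against 44.6 CPM in the Clec3b Dpt class) and Phgr1 (6.37 against 5.95 CPM).

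The 10 genes with the lowest ratios included 2 smooth muscle genes that mark myofibroblasts. Acta2, which encodes alpha-smooth muscle actin, was at 34.1 CPM in members, against 635 CPM in the Wt1, 62.2 CPM in the Clec3b Dpt and 544 CPM in the matrix class (log2 ratio -3.56). Tagln, an actin-binding protein gene of the same program, was at 53.3 CPM against 621, 67.3 and 682 CPM (-3.07). Col15a1 (-2.59), a basement membrane collagen gene, and Ncam1 (-2.37), a neural cell adhesion gene, showed the same order, low in members and in the Clec3b Dpt class. The lowest ratio was that of the adhesion gene Cadm4 (2.96 CPM, 2 UMIs, -4.27), which was high in the Wt1 class (167 CPM). Kiz, Celf4, Serpinb2, Hs6st2 and Cxcl13 completed the 10, and Cxcl13, a B cell chemokine gene, was a gene of the Clec3b Dpt class (336 CPM against 19.2 CPM in members, all from 1 cell). All 10 stayed past 2-fold without KPC-marker-rich cells.

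**Figure D5:**
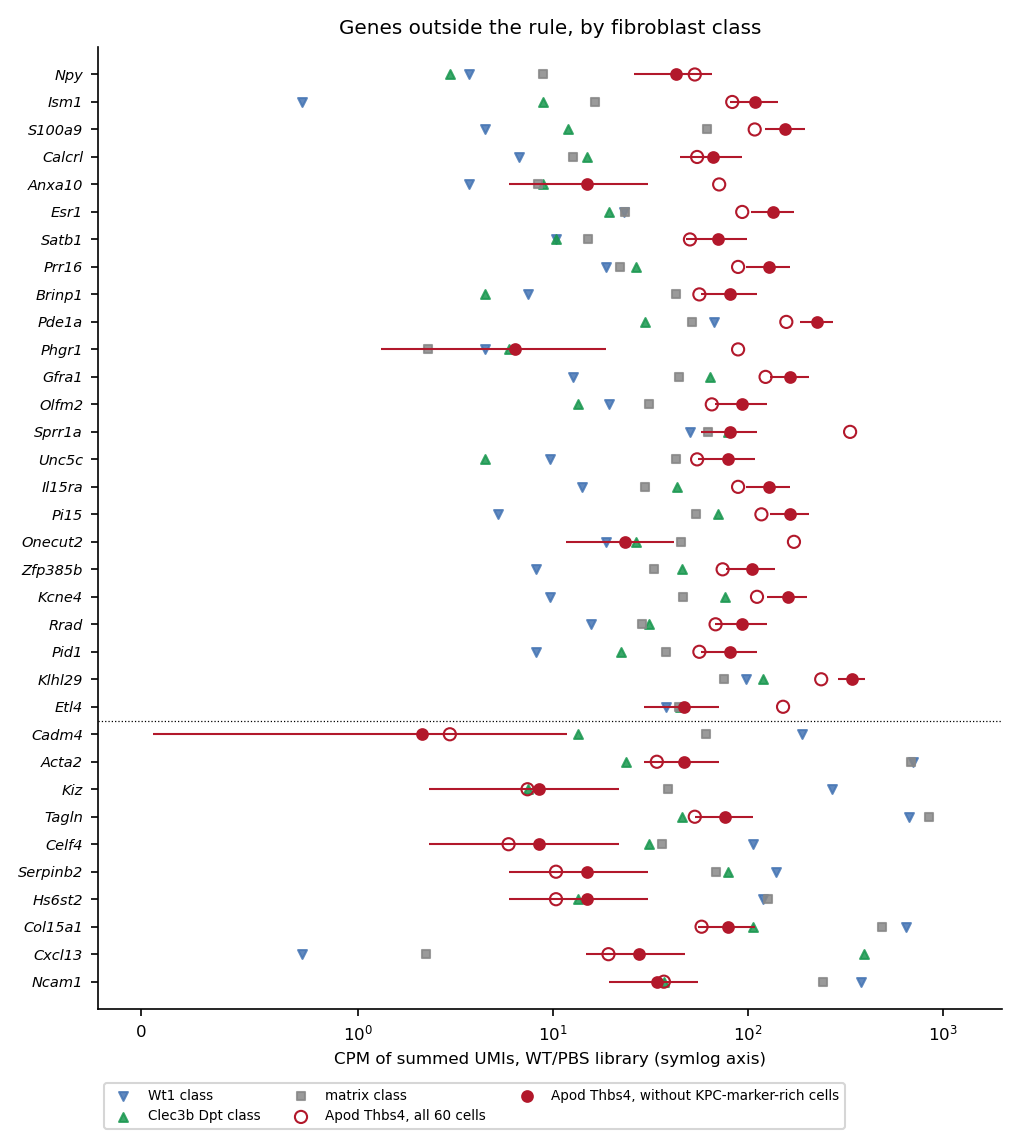
CPM (axis linear below 1 and logarithmic above) of 24 of the 25 genes with the highest and, below the dotted line, the 10 with the lowest ratio in WT/PBS members; open circles are all 60 members, filled circles with exact Poisson 95% intervals the members without KPC-marker-rich cells, and triangles and squares the other classes without such cells. Sprr1a, Onecut2, Phgr1, Anxa10 and Etl4 lie near the other classes once the 5 cells are left out, and Acta2 and Tagln lie near the Clec3b Dpt class.

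The lower genes of the myCAF list included contractile genes, and Ccl2 was the 1 higher gene of the iCAF list. In these and the later lists a measured gene is one past the level filter, and the shares over all genes against which the counts are to be read are 2.37% higher and 3.29% lower in the 60 cells and 3.85% and 5.71% in the 55. Of 10 measured myCAF genes, 0 were 2-fold higher in members and 4 were lower, with a median log2 ratio of -0.83 (5 of 10 lower without KPC-marker-rich cells). Besides Acta2, Tagln and Col15a1 the fourth was Tpm2, a tropomyosin gene (-1.74), which was at 55.3 CPM in the 55 members against 365, 93.7 and 320 CPM in the Wt1, Clec3b Dpt and matrix classes. Of 11 iCAF genes, 1 was higher and 0 lower (median 0.34), and without the 5 cells 4 of 12 were higher and 1 lower (median 0.63). The higher gene was Ccl2, a monocyte chemokine, at 3121 CPM in members and 4428 CPM in the 55. The others in the 55 were Il6 (680 CPM, log2 ratio 1.25), Cxcl14 (1645 CPM, 1.17) and the hyaluronan synthase Has1 (763 CPM, 1.29), and Ly6c1 was lower (-1.25). As sums, the iCAF list reached 8386 CPM in members, 9242 in the Clec3b Dpt, 4724 in the Wt1 and 2936 in the matrix class, so its level in members was near that of the Clec3b Dpt class. Of 2 measured genes of the antigen-presenting list (apCAF), Slpi (-2.13) and Saa3 (-1.11) were both lower, and in the 55 cells Slpi alone was (-1.83, against -0.74 for Saa3). As a sum, the apCAF list was at 269 CPM in members, against 1361 CPM in the Wt1, 334 CPM in the Clec3b Dpt and 158 CPM in the matrix class. Its level in members was thus above that of the matrix class, and the Wt1 class held most of the list.

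Leaving out the KPC-marker-rich cells raised the number of genes past 2-fold over all genes, as given above, and also among cytokine genes. Of 16 chemokine and cytokine genes, 2 were higher and 1 lower (median 0.13), and of 17 in the 55 cells 6 were higher and 1 lower (median 0.51). The 6 were Ccl2, Cxcl14, Il6, Il33 (563 CPM, log2 ratio 1.16), an alarmin, Il11 (87.1 CPM, 1.54), with 68.3% of its UMIs in 1 of 4 cells, and Csf2 (53.1 CPM, 2.14), in 5 cells. Csf2 was at 44.4 CPM in all members, under the level filter, and at 11.3 CPM in the mean of the other classes. In the 55 cells Csf2 and Il11 passed the limit of 50 CPM only through the members, so they could enter only with log2 ratios above 0. The count of 6 and the median of 0.51 follow in part from that filter. Il1rl1, the receptor for the Il33 protein, was at 198 CPM in members against 11.0, 146 and 63.7 CPM (1.42), and was the 1 higher gene of 8 on the PDGF, FGF and cytokine receptor list (median 0.15). Its log2 ratio was also 0.90 after thinning. Of 10 NF-kB response genes none passed 2-fold in either direction (median 0.28), nor did any of 13 immediate early genes (0.15) or 11 heat shock genes (0.39). Heat shock genes summed to 26888 CPM in members and 35271 CPM in the Clec3b Dpt class, against 11778 and 13952 CPM in the Wt1 and matrix classes.

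Tendon and hyaluronan matrix genes had median log2 ratios above 0. Of 6 tendon and ligament genes 3 were higher and 0 lower (median log2 ratio 0.80, and 1.09 in the 55 cells). These were Prg4 (930 CPM, 1.06), the lubricin gene, Fmod (71.1 CPM, 1.22), a small leucine-rich proteoglycan that binds collagen, and Comp (74.0 CPM, 1.14), a thrombospondin family gene of cartilage and tendon. Fmod and Comp passed the limit of 50 CPM only through the members, so they could enter only with log2 ratios above 0. The count and the median of this list follow in part from that filter. Prg4 was at 1433 CPM in the Clec3b Dpt class, above the 1334 CPM of the 55 members. As a sum, the tendon and ligament list reached 2113 CPM in members (2962 CPM in the 55) and 2886 CPM in the Clec3b Dpt class, against 564 and 691 CPM in the Wt1 and matrix classes. These class sums include KPC-marker-rich cells, so they compare with the 2113 CPM and not with the 2962 CPM. The tendon regulator genes Scx and Mkx and the tendon gene Tnmd were on the list, and none passed the level filter. Of 5 hyaluronan matrix genes 1 was higher (median 0.89), and in the 55 cells 3 of 5 were (1.16), namely Has1, Has2 and Tnfaip6, which encodes a protein that transfers heavy chains to hyaluronan (1158 CPM, 1.51). Small leucine-rich proteoglycans had 1 of 6 higher, Fmod, and a median of 0.56.

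Structural matrix genes were mostly near the level of the other classes. Fibrillar and network collagens had 0 of 11 higher and 1 lower, Col15a1 (median -0.27). Matricellular and elastic fiber genes had 1 of 16 higher, Mfap4 (173 CPM, log2 ratio 1.30), an elastic fiber protein gene, and 3 lower, namely Eln (-1.59), Fn1 (-1.27) and Spp1 (-1.26), which encode elastin, fibronectin and osteopontin (median -0.18, and 0.10 in the 55 cells). Matrix proteases and inhibitors had 0 of 13 past 2-fold (median -0.30), and in the 55 cells 2 of 13 were higher, among them the plasminogen activator gene Plau (1.11). Cartilage and bone genes had 0 of 3 higher and Spp1 lower (median 0.20).

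D-CAN was designed against adipose stromal cells. Of 8 measured adipose stromal genes 0 were higher and 2 lower (median -0.44), namely Ly6a (-1.49), the stem cell antigen gene, and Fabp4 (-1.35), a fatty acid binding protein gene. Both were most abundant in the Clec3b Dpt class. Lipid binding and retinoid genes had 1 of 8 higher, the retinaldehyde dehydrogenase gene Aldh1a3 (115 CPM, 1.04), and 2 lower, Fabp4 and Fabp5 (median -0.48), and in the 55 cells 4 of 9 were lower, with Apoe (-1.10) and Aldh1a2 (-2.05) added (median -0.79). The 2 genes tied to the study's treatments were both present. Pdgfrb, which drives the transgene, was at 47.4 CPM in WT/PBS members (32 UMIs, 19 of 60 cells), against 128 CPM in the matrix and 41.9 CPM in the Clec3b Dpt class, and at 714 CPM in D-CAN members (29 UMIs, 72.4% of them in 1 cell, and 625 CPM without it). Dcn, the decorin gene, was at 2023 CPM in WT/PBS members (2843 CPM in the 55) and at 2439 CPM in D-CAN members, where 86 of its 99 UMIs were in the deepest cell and the other 6 cells were at 1016 CPM.

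Hypoxia and glycolysis genes had 0 of 19 higher and 2 lower (median -0.38), and in the 55 cells 6 of 18 lower and 1 higher (median -0.87), where Eno1 (-2.00) and Pgk1 (-1.12) were among the lower. Neuropeptide and receptor genes had Npy and Calcrl higher and Adm lower of 3 (median 2.34), and in the 55 cells Calcrl higher and Adm lower of 2 (median 0.01). Npy and Calcrl were at 5.28 and 10.0 CPM in the mean of the other classes. They passed the level filter only through the members and could enter only with log2 ratios above 0, so the median of 2.34 follows from the filter. Angiogenic and guidance genes had Fgf7 (99.2 CPM, 1.35), an epithelial growth factor gene, higher and Angpt1 (-2.14) lower of 11 (median 0.07). In the 55 cells Angptl1 (1.43) was also higher and Angptl2 (-1.02) also lower, of 14 (median -0.13).

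Several calls among the lower genes were lost in the 55 cells. Interferon response genes had Ifit1 (-1.85) and Isg15 (-1.40) lower of 6 (median -0.49), and in the 55 cells 0 of 5 (median -0.13). Wnt pathway genes had Fzd1 (-1.34) and Dkk3 (-1.01) lower of 3 (median -1.01), and in the 55 cells Fzd1 (-1.11) of 4 (median -0.23). Of 8 complement genes C2 was lower (median -0.12), and in the 55 cells 0 of 8 were (median 0.24). Igfbp5 (-1.90) of 7 IGF axis genes (median -0.10) and Hpgd (-1.41) of 9 prostaglandin and antioxidant genes (median 0.01) were lower in the 60 cells, and also in the 55 (-1.70 and -1.11). None of these 5 lists had a higher gene. In the 60 cells none passed 2-fold in either direction among 13 TGF-beta and BMP genes (median -0.24), 4 hexosamine pathway genes (-0.17), 4 nerve sheath fibroblast genes (0.16), 6 p53 target genes (-0.30) and 1 cell cycle gene (0.24). In the 55 cells Fst, the gene of the activin inhibitor follistatin (516 CPM, 1.21), was higher on the first of these lists and Cdkn2a (-1.18), a cell cycle inhibitor gene, lower on the nerve sheath list.

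Within the class, D-CAN and WT/PBS members were set side by side, with 7 cells and 40588 UMIs on the D-CAN side, 68.5% of them from 1 cell of 27798 UMIs. Of 1078 genes that passed the level filter, 117 were 2-fold or more higher in D-CAN (10.9%) and 392 lower (36.4%), with a median log2 ratio of -0.57. Setting that median to 0 changed the split to 223 higher and 231 lower. Leaving out the deepest cell gave 130 higher and 477 lower of 1019.

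The genes furthest above WT/PBS in D-CAN members were mostly those of the deepest cell. Spp1 had 41244 CPM against 1002 CPM in WT/PBS, and 99.0% of its 1674 UMIs came from that cell, without which it was at 1251 CPM. Sparcl1, a matricellular gene (2636 against 267 CPM, 89.7% from 1 cell), and Eln (1035 against 124 CPM, 81.0%) were also mostly from that cell. Without it they were at 860.0 and 625 CPM, above WT/PBS but on only 11 and 8 UMIs. Arl5b was in that cell only. Spon1, a matrix gene, was found in 6 of the 7 cells and remained at 1095 CPM (14 UMIs) without the deepest, against 158 CPM in WT/PBS. Tshz2 and Rora, which encode transcription factors, were in 4 cells each. They remained at 2658 and 1564 CPM (34 and 20 UMIs), against 228 and 185 CPM. Tmem176a and Tmem176b were also among them, at 625 and 235 CPM without the deepest cell, on only 8 and 3 UMIs.

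The 10 genes furthest below WT/PBS were genes with 0 UMIs in D-CAN members, so each ratio is a bound against 3 counts over the 7 cells. Most of that depth was in the deepest cell. Over the other 6 cells (12790 UMIs) 3 counts would be 235 CPM instead of 73.9 CPM, so every bound below would be smaller. Maff and Inhba, for example, were at 274 and 378 CPM in WT/PBS members, not far above 235 CPM. Prg4 was at least 12.6-fold lower than the 930 CPM of WT/PBS members, the neutrophil chemokine gene Cxcl2 at least 10.2-fold lower than 755 CPM, and the heme oxygenase gene Hmox1 at least 7.13-fold lower than 527 CPM. Inhba, which encodes an activin subunit, was at least 5.11-fold lower, Sema6a at least 5.87-fold, Magi1 at least 4.93-fold, Depdc5 at least 4.75-fold and Maff at least 3.71-fold. Wfdc2 (at least 8.23-fold) and Areg (at least 3.61-fold) were partly genes of the KPC-marker-rich WT/PBS cells, with levels of 609 and 267 CPM in all 60 members and 157 and 121 CPM in the 55. Of the cytokine genes named above, Ccl2 was at 345 CPM (14 UMIs) in D-CAN members against 3121 CPM, a ratio of 0.111 (0.0603 to 0.186), and Il6 at 73.9 CPM (3 UMIs) against 474 CPM. Cxcl14 was higher in D-CAN members (4065 against 1174 CPM), with 88.5% of its UMIs in the deepest cell and 1486 CPM without it. The lower depth and higher mitochondrial share of the D-CAN members given above accompany these differences, and their part in them was not tested.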

How the data were processed

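The authors deposited counts: UMIs per gene and cell, not normalized, for cells already separated from empty droplets. The study's methods name Cell Ranger 3.1.0 with mm10 and Ensembl 93, whereas the file headers name Cell Ranger 7.0.0. Libraries were matched to conditions by the sample titles. Deposited cells with under 200 genes were removed, and no doublets were. UMIs of a class were summed per library and scaled to CPM (UMIs per 1000000 over 32285 genes, without 5 GFP and Tdtomato features listed for the wild-type libraries) with exact Poisson intervals. Shares have exact Clopper-Pearson intervals, folds of shares exact conditional binomial ones, and a count of 0 was read as up to 3 counts. PCR and capture error are not covered. With 1 library per condition no test was run.

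Outside the genes of the rule, the 25 highest and 10 lowest ratios, the 10 most extreme genes of D-CAN against WT/PBS in each direction, up to 4 genes of each of 42 lists, and Pdgfrb and Dcn were named, leaving out mitochondrial, ribosomal, hemoglobin, Gm and Rik genes. Some genes that this rule selects are not reported here. The members and the lists were chosen with earlier results of these data known. Coordinates are from GENCODE M21 (mm10). The calculation of ratios was tested on simulated data. Python 3.11.15, numpy 2.4.6, scipy 1.17.1, pandas 2.3.3 and scanpy 1.11.5 (Scrublet for doublet scores) were used. Alternatives covered the cell filters, doublets, ties, KPC-marker-rich cells, thinning to 2000 UMIs, the pseudocount, the level filter, centering and the control library.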

Additional observations from a re-analysis of the deposited data

Results flagged for a closer look

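The wild-type libraries list reporter features besides the mouse genes, and the members carried UMIs of them, although the labels name no reporter allele. In the 60 WT/PBS members there were 32 Tdtomato UMIs in 18 cells (47.4 per 1000000 gene UMIs) and 8 GFPcds UMIs in 6 cells (11.8 per 1000000). Of the same library, all gate cells had 22.9 and 22.3 per 1000000, and KPC-marker cells had 0.635 and 0.981. The 5 KPC-marker-rich members had 0 of either. In D-CAN the 7 members had 1 Tdtomato UMI and 0 of GFPcds. The source of these UMIs was not tested.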

How the results depend on the processing

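The share of members in D-CAN against WT/PBS kept its direction under the 7 alternatives of cells and rule, between 0.0659 and 0.151 of the WT/PBS share among kept cells and between 0.107 and 0.225 among gate cells. With Pdgfrb-TK/PBS as the control it turned to 7.20-fold and 3.15-fold higher, on 1 control cell. Pdgfrb-TK/GCV minus Pdgfrb-TK/PBS was -0.00955 percentage points of kept and -0.187 of gate cells. It turned to 0.00251 and 0.886 with ties counted in (5 and 4 cells) and was -0.516 and -2.71 against WT/PBS. Genes 2-fold higher and lower in members than in the other classes numbered 85 and 118 of 3583. They numbered 103 and 93 of 3583 with the median set to 0, and 139 and 206 of 3607 without KPC-marker-rich cells. Requiring at least 3 of the 6 genes gave 175 and 234 of 3609, and counting ties in 21 and 49 of 3437. With no level filter there were 1252 and 2493 of 22510, and after thinning 157 and 489 of 3654. Leaving out the highest doublet scores gave 83 and 181 of 3586, and summing all other gate cells 181 and 138 of 3670. Genes higher and lower in D-CAN than in WT/PBS members numbered 117 and 392 of 1078 (10.9% and 36.4%). Without KPC-marker-rich cells they numbered 77 and 253 of 726, which are nearly the same shares (10.6% and 34.8%). With ties counted in they were 523 and 847 of 3469, and with no level filter 2530 and 8494 of 14171. Setting the median to 0 gave 223 and 231 of 1078, and thinning 6 and 94 of 149. Against the single Pdgfrb-TK/PBS member they were 18 and 9 of 39. The removal of KPC-marker-rich cells, the ties and the leaving out of the deepest D-CAN cell were chosen after seeing the data. The cause of these shifts was not tested. No paired analysis was possible because each condition had 1 library, and for the same reason no replicate could be left out. Depth limits the D-CAN members, where 3 counts are 73.9 CPM, and still more the single Pdgfrb-TK/PBS member, where 3 counts are 431 CPM.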

Other observations

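Leaving out the KPC-marker-rich cells brought further genes to the top of the ratios. In the 55 members Rgs4, a regulator of G protein signaling, was at 59.5 CPM against 1.49, 2.97 and 19.1 CPM in the Wt1, Clec3b Dpt and matrix classes (log2 ratio 2.77), in 8 cells. Pthlh, the gene of parathyroid hormone-related protein, was at 51.0 CPM (2.55) in 8 cells, with 58.3% of its UMIs in 1 of them. C1qtnf3, a secreted adipokine-like gene, was at 59.5 CPM (2.19) in 7 cells. Camk4, a calcium-dependent kinase gene, was at 51.0 CPM (2.04) in 10 cells. For Chil1 (2.33), S100a8 (2.27) and Fmn2 (1.88), 77.8%, 87.1% and 73.1% of the UMIs lay in 1 cell. Among the lowest ratios, Serpinb6b (-3.51), Ankrd1 (-2.72) and Abcb1a (-2.65) were among the 10 lowest only once KPC-marker-rich cells were left out of the members and the other classes.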
